A study of Mus musculus with 12 samples.

Results

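The enzymes that crosslink and hydroxylate collagen were followed in mouse fibroblasts by RNA-Seq. The 10 genes Lox, Loxl1, Loxl2, Loxl3, Loxl4, Plod1, Plod2, Plod3, P4ha1 and P4ha2 were taken by gene name from the 54447 features of the raw count table, and all 10 were found. All 10 also passed the filter on low counts, as did 13608 features in all. The 12 libraries fall into 4 groups of 3. NLS-N-VEGF cells grown without doxycycline (dox) form 1 group, NLS-N-VEGF cells given dox another, and N-VEGF cells make up the remaining pair in the same way. The N-VEGF insert encodes the N-terminal extension found in the long form of the growth factor VEGF, and the NLS-N-VEGF insert adds a nuclear localization sequence to it. The question behind the design is whether N-VEGF that is sent to the nucleus at normal oxygen changes transcription.

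The labels call the cells mouse embryonic fibroblasts, and the study's methods name the line NIH3T3. In both populations the insert sat behind a dox-inducible promoter in a lentiviral vector and infected cells were selected with puromycin, so the cells without dox carry the same construct and vector as their dox-treated counterparts. No group received dox without an insert, and a response to dox itself therefore cannot be told apart from a response to the insert. Each library label has a number and a suffix, 1_120519, 2_120519 or 2_290419, and each group holds 1 library of each label. What the suffix stands for is not given in the sources used here.

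Total counts ran from 13549331 to 18982127 per library, and the 10 enzymes took 0.153 to 0.232% of them. Of 12 fibroblast markers, 10 averaged at least 1 CPM, the usual unit for a count scaled to the total of its library. Lum and Postn, listed among them, averaged 0.407 and 0.450 CPM. The summed fibroblast list reached 11255 to 14235 CPM, against at most 10.1 CPM for any of the lists of endothelial, epithelial, leukocyte, muscle, chondrocyte and adipocyte markers, in which Krt5, Cd3e, Myod1 and Myog had 0 counts. No row of the table holds the construct alone, so its induction was not checked here. The gene Vegfa, which may or may not take up reads of the insert, was at 88.6, 87.4 and 84.8 CPM in dox-free NLS-N-VEGF cells and at 130, 121 and 79.5 CPM with dox, in the order 1_120519, 2_120519, 2_290419. In N-VEGF cells Vegfa was at 78.8, 92.4 and 74.0 CPM without dox and at 92.6, 85.5 and 73.1 CPM with dox. The library 2_290419 was thus the lowest for Vegfa in every group. For Lox, described below, the 2_290419 library was the highest of its group only in dox-treated NLS-N-VEGF cells.

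Collagen is modified in 2 compartments. In the endoplasmic reticulum, prolyl 4-hydroxylases turn prolines into hydroxyprolines, which hold the triple helix together at body temperature, and lysyl hydroxylases turn lysines into hydroxylysines, which carry sugars and feed the stronger kinds of crosslink. Outside the cell, lysyl oxidases turn lysines and hydroxylysines of collagen, and lysines of elastin, into aldehydes that condense into crosslinks. Both hydroxylase families need oxygen, iron, 2-oxoglutarate and ascorbate, the lysyl oxidases need copper, and several genes of the set, among them Lox, Loxl2, Plod2, P4ha1 and P4ha2, are known targets of the hypoxia-inducible factors (HIF).

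HIF binds DNA at a short core, and the promoters of the members were searched for it because the study asks about a hypoxia-like response. RefSeq promoter windows on GRCm38.p6, from 250 bases before to 50 bases after the start, are described for 5 of the 10 genes (Loxl4, Plod1, Plod3, P4ha1 and P4ha2). Lox was left out of this search and its window is not reported here. Loxl1, Loxl2, Loxl3 and Plod2 had no matching window. All 5 held the letters ACGTG or GCGTG on one strand or the other, with 1 match in Loxl4, 2 in Plod1, 3 in P4ha1 and 4 each in Plod3 and P4ha2. Of all 32851 windows of this length, 43.8% held one or the other, 19.6% held ACGTG and 32.4% held GCGTG. These windows are 53.3 to 75.0% G and C, and a match describes the letters and not a site in use. The windows of Loxl4, the member called with dox in the edgeR fit with the library label as a block, of P4ha1, the member with the lowest p between the label suffixes, and of P4ha2, its closest relative in the set, are printed with the matches in capitals. A match on the other strand reads CACGT or CACGC. The P4ha2 window lies downstream of the first annotated start of the gene, chr11:54100095, and the bases around that start were not searched.
Loxl4, chr19:42612757-42613056, minus strand: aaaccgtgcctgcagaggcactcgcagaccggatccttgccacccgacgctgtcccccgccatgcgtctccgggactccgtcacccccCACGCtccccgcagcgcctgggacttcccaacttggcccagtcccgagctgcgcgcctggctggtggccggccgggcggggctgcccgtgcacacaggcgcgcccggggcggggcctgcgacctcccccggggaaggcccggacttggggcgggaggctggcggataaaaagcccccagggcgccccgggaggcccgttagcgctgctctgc
P4ha1, chr10:59323046-59323345, plus strand: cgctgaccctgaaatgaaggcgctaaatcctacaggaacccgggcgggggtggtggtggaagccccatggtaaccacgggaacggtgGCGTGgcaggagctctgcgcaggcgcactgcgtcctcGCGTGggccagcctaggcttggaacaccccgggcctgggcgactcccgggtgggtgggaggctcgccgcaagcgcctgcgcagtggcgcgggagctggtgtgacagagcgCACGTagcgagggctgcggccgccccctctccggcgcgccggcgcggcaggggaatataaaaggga
P4ha2, chr11:54100674-54100973, plus strand: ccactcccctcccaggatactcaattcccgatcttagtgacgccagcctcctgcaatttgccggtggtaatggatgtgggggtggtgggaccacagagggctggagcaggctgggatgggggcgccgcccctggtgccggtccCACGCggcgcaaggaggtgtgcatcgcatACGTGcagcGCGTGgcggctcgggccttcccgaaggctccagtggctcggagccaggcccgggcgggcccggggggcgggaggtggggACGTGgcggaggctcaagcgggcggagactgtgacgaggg

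To rank the members against each other, counts were divided by exon length and by the scaled library total, which gives FPKM, the CPM per kilobase of exon. The length counts every base that lies in any annotated exon of the gene, whichever transcripts the cells express. Lox, the founding lysyl oxidase, stood first at 229 ± 40.3 FPKM (SD, n = 12) and made up 52.1% of the summed level of the 10 genes. Loxl1, the relative known for elastic fibers, followed at 78.3 ± 12.04 FPKM. In all 12 libraries Lox lay above Loxl1, and Loxl1 above every gene after it. Plod3, the lysyl hydroxylase that also transfers sugars, came next at 41.2 ± 2.04 FPKM, and P4ha1, the main catalytic subunit of prolyl 4-hydroxylase, then followed at 39.3 ± 4.47 FPKM. These neighbours did not separate, since Plod3 was above P4ha1 in 8 of 12 libraries.

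Loxl3 (14.5 ± 1.59 FPKM), Plod2 (12.2 ± 1.66 FPKM) and Plod1 (11.5 ± 0.973 FPKM) formed the middle of the range with overlapping values, Loxl3 being above Plod2 in 10 and Plod2 above Plod1 in 8 of 12 libraries. P4ha2 had 9.43 ± 0.603 FPKM and lay below Plod1 in all 12. The order of these genes depends on the length used, since in CPM Plod1 averaged 78.1, Loxl3 66.6, Plod2 65.6 and P4ha2 58.8. Loxl4 stood at 4.19 ± 1.01 FPKM and Loxl2 last at 0.223 ± 0.0766 FPKM. The library kit does not mark strand, and reads from the opposite strand cannot be told apart where exons overlap. Such overlap covers 11.7% of the exon length of Plod3 (with Znhit1), 11.6% of Loxl3 (with Htra2), 6.42% of Plod2 and 5.57% of Loxl2, and none of Loxl1, Loxl4, Plod1, P4ha1 or P4ha2.

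**Figure D1:**
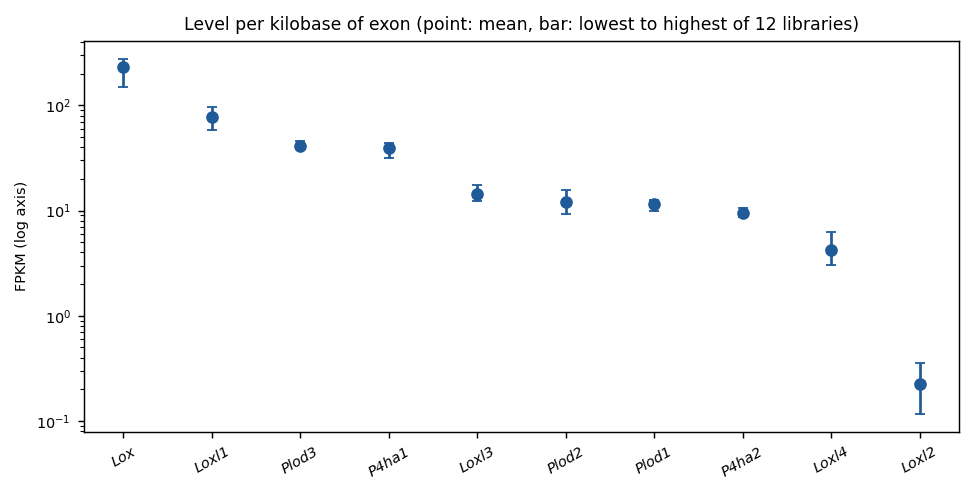
Level of each enzyme in FPKM on a log axis, ordered by the mean over all libraries. Points are means and bars run from the lowest to the highest of the 12 libraries. Lox at 229 FPKM stands above the range of every other member, and Loxl2 at 0.223 FPKM below it.

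The dox comparison asks what differed between libraries with and without dox, in each population and on average over both. Among the members, Loxl4 was higher and Lox lower with dox, each in at least 5 of 6 pairs of libraries that share a label, while each hydroxylase differed by at most 0.14 in size on the log2 scale in either population. With 1 mean per group, edgeR's quasi-likelihood test called 0 of the 10 in NLS-N-VEGF cells, 0 in N-VEGF cells and 0 for the mean of both at a Benjamini-Hochberg adjusted p of 0.05. Over all genes it called 3 (0.0220%), 5 (0.0367%) and 8 (0.0588%). At an unadjusted p under 0.05 the members counted 1, 2 and 2, beside 318, 201 and 423 of all genes. DESeq2 called 0, 0 and 1 of the members, beside 9, 7 and 16 of all genes. Libraries of the same label deviated together across groups, as did those that share suffix _120519 but not the number. With the label as a block the test called Loxl4 in NLS-N-VEGF cells and for the mean of both populations, and no other member in any dox comparison. With the suffix as a term in place of the label, Loxl4 was called in the same comparisons (edgeR adjusted p = 0.0294 and 0.00213). The fit with the block called 17 genes (0.125%) in NLS-N-VEGF cells, 15 (0.110%) in N-VEGF cells and 77 (0.566%) for the mean. The median log2 difference of the members was -0.03 in NLS-N-VEGF cells and 0.01 in N-VEGF cells, beside 0.00 over all genes in each.

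**Figure D2:**
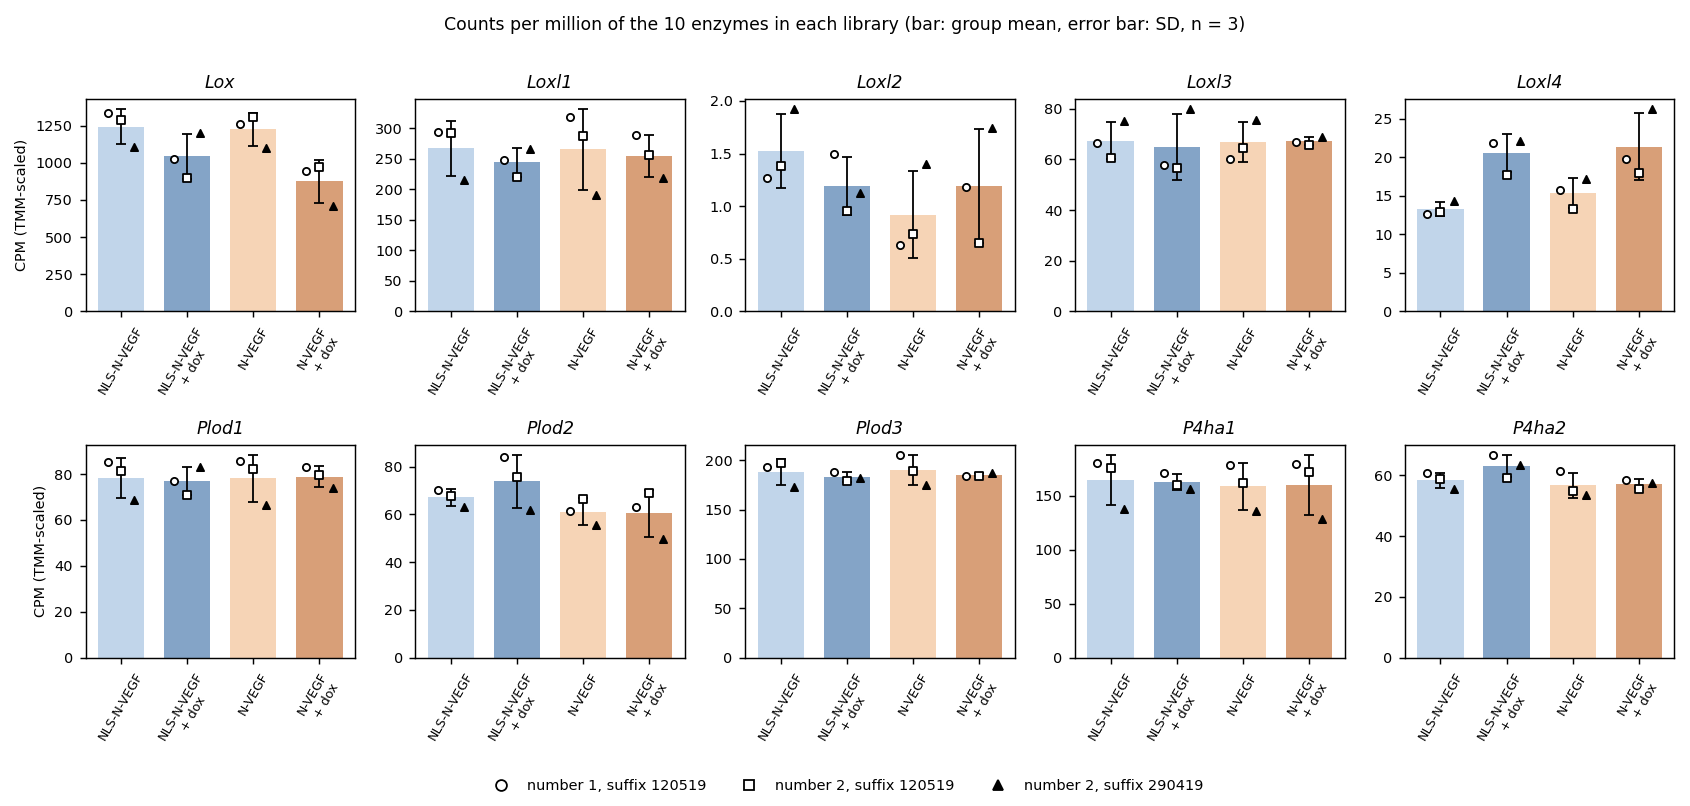
CPM of the 10 enzymes, 1 panel per gene, with a bar at each group mean, SD as the error bar (n = 3) and a symbol per library for its number and suffix. The 6 libraries with dox stand above the 6 without it in the Loxl4 panel alone, and the filled triangles of suffix _290419 lie below the open symbols in every group for P4ha1 and Plod2.

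Loxl4 (ENSMUSG00000025185, chr19:42593982-42612813, minus strand, GRCm38) is one of the lysyl oxidases with scavenger receptor domains and acts on collagen in the matrix. In dox-free NLS-N-VEGF cells it was at 12.7, 12.9 and 14.3 CPM in the order 1_120519, 2_120519, 2_290419, and with dox at 21.8, 17.7 and 22.2 CPM. In N-VEGF cells it was at 15.7, 13.2 and 17.2 CPM without dox and at 19.8, 18.0 and 26.3 CPM with it. Every library with dox lay above every library without it, in each population and over both. Of all tested genes, 9.27% separated in one direction or the other in NLS-N-VEGF cells, 3.92% in N-VEGF cells and 0.382% over both populations.

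The log2 difference of Loxl4 was 0.63 (SE 0.16) in NLS-N-VEGF cells, a fold of 1.55, with an edgeR adjusted p of 0.9998 and, with the block, 0.0141. In N-VEGF cells it was 0.47 (SE 0.15), a fold of 1.39, with an edgeR adjusted p of 0.9999 and, with the block, 0.103. Averaged over both populations the value was 0.55 (SE 0.11), a fold of 1.47, for which edgeR gave an adjusted p of 0.334 and, with the block, 8.62e-04. The same-label pairs differed by 0.78, 0.46 and 0.63 on the log2 scale in NLS-N-VEGF cells and by 0.33, 0.44 and 0.61 in N-VEGF cells. The 2 populations were not shown to differ in this, as the difference between their dox effects was 0.16 with a 95% interval of -0.32 to 0.64. With the block the interval was -0.14 to 0.46.

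In NLS-N-VEGF cells, the blocked call of Loxl4 depended on single libraries. It was lost, at log2 differences of 0.55 to 0.65, without the library 1_120519 without dox (edgeR adjusted p = 0.203), 2_290419 without dox (0.0967), 1_120519 with dox (0.232) or 2_120519 with dox (0.0950). For the mean of both populations the call with the block held in all 12 fits that left out 1 library.

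**Figure D3:**
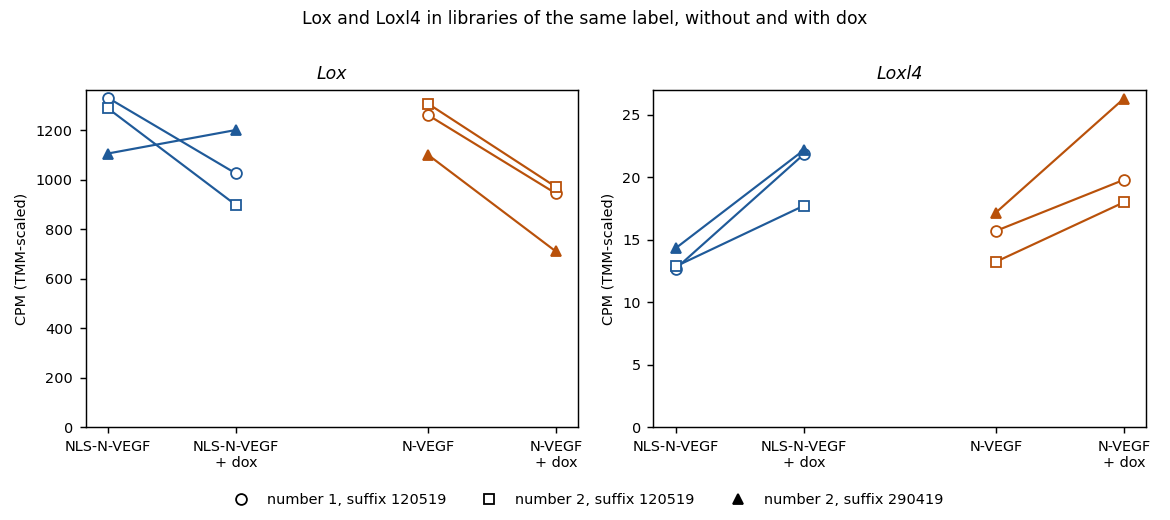
CPM of Lox (left) and Loxl4 (right), with a line joining the libraries of one label without and with dox in each population. All 6 lines rise for Loxl4, and for Lox 5 of 6 fall, the exception being NLS-N-VEGF 2_290419, which goes from 1107 to 1202 CPM.

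Lox (ENSMUSG00000024529, chr18:52516069-52529867, minus strand, GRCm38) encodes the lysyl oxidase of collagen and elastin and was the most abundant member. Without dox it lay at 1332, 1289 and 1107 CPM in NLS-N-VEGF cells and at 1263, 1309 and 1102 CPM in N-VEGF cells. With dox it was at 1026, 899 and 1202 CPM in NLS-N-VEGF cells and at 945, 972 and 711 CPM in N-VEGF cells. The N-VEGF groups do not overlap, and the NLS-N-VEGF groups overlap through the library 2_290419 with dox.

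The log2 difference of Lox with dox was -0.48 (SE 0.14) for N-VEGF cells, with an unadjusted p of 0.00494 and an edgeR adjusted p of 0.9999, or 0.226 with the block. In NLS-N-VEGF cells it was -0.25 (SE 0.14), and the pairs there differed by -0.38, -0.52 and 0.12, against -0.42, -0.43 and -0.63 in N-VEGF cells. The mean of both populations was -0.37 (SE 0.10), with an unadjusted p of 0.00298 and an edgeR adjusted p of 0.99995, or 0.0671 with the block. Without the library 2_290419 of dox-treated NLS-N-VEGF cells, the fit with the block called Lox lower in NLS-N-VEGF cells at -0.46 (edgeR adjusted p = 0.0244), in N-VEGF cells at -0.49 (0.0121) and on average at -0.48 (4.32e-04). The mean was also called without the library of dox-free N-VEGF cells labelled 1_120519 (-0.37, 0.0359) or 2_290419 (-0.40, 0.0388). Of the 12 fits with the block that left out 1 library, 1 called Lox in NLS-N-VEGF cells, where the values ran from -0.46 to -0.09. In N-VEGF cells 1 of 12 called it (values from -0.58 to -0.37), and for the mean 3 of 12 did (-0.48 to -0.29). The difference between the dox effects on Lox was 0.23, with a 95% interval of -0.20 to 0.66, or 0.24 (interval -0.11 to 0.60) with the block.

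**Figure D4:**
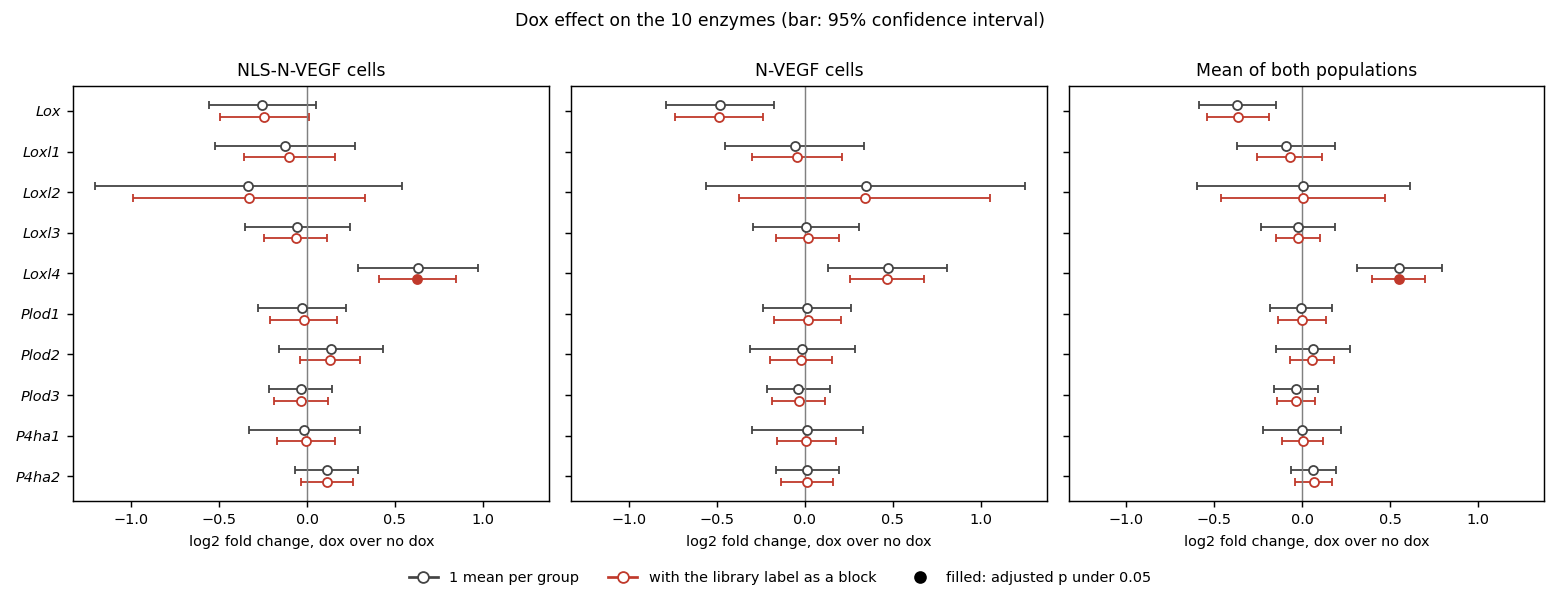
Log2 fold change with dox for each enzyme in NLS-N-VEGF cells (left), N-VEGF cells (middle) and on average (right), with 95% intervals from the fit with 1 mean per group (grey) and from the fit with the library label as a block (red). Filled points have an adjusted p under 0.05. Loxl4 lies right of 0 in every panel, at 0.63, 0.47 and 0.55, and is filled in the left and right panels for the block.

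The other lysyl oxidases did not pass the test with dox. In NLS-N-VEGF cells Loxl1 was at 216 to 294 CPM without dox and 220 to 266 CPM with it, and it was at 191 to 319 CPM and 219 to 289 CPM in N-VEGF cells, so that the groups overlapped in both. Its mean log2 difference with dox was -0.09, with a 95% interval of -0.37 to 0.19. Loxl3, known from palate and spine development, was at 60.5 to 75.1 CPM without dox and 56.8 to 79.9 CPM with it in the NLS-N-VEGF population, and at 60.2 to 75.6 and 65.8 to 68.9 CPM in N-VEGF cells. Its mean log2 difference was -0.02, with an interval of -0.24 to 0.19. Loxl2, which oxidizes collagen IV of basement membranes, had 10 to 28 counts per library. At 0.628 to 1.92 CPM the interval of its mean dox difference ran from -0.60 to 0.61 on the log2 scale, or from -0.46 to 0.47 with the block.

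Of the lysyl hydroxylases, Plod1 modifies lysines of the helix, Plod2 those of the telopeptides at the ends, and Plod3 adds glucose and galactose as well. Plod1 averaged 78.3 ± 8.64 CPM without dox and 76.9 ± 6.07 CPM with dox in NLS-N-VEGF cells (SD, n = 3), and 78.1 ± 10.2 and 78.9 ± 4.46 CPM in N-VEGF cells. Plod3 averaged 187.5 ± 13.2 and 182.9 ± 4.65 CPM in NLS-N-VEGF cells and 190.0 ± 15.1 and 185.2 ± 1.62 CPM in N-VEGF cells. Their mean log2 differences with dox were -0.01 (interval -0.18 to 0.17) for Plod1 and -0.04 (interval -0.16 to 0.09) for Plod3, the latter being among the tightest of the set. Plod2 was at 70.3, 67.9 and 63.2 CPM without dox in NLS-N-VEGF cells and at 83.9, 75.7 and 61.9 CPM with it. In N-VEGF cells it was at 61.3, 66.6 and 55.4 CPM and at 63.0, 69.0 and 49.5 CPM. Within both populations the library of suffix _290419 was the lowest with and without dox, and the dox difference was 0.14 (interval -0.16 to 0.43) in NLS-N-VEGF and -0.01 (interval -0.31 to 0.28) in N-VEGF cells.

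P4ha1 and P4ha2 are alternative catalytic subunits of prolyl 4-hydroxylase and pair with the protein disulfide isomerase P4hb. In NLS-N-VEGF cells P4ha1 was at 138 to 180 CPM without dox and 157 to 172 CPM with it, and it was at 136 to 179 and 129 to 180 CPM in N-VEGF cells, a mean fold of 0.999 with an interval of -0.22 to 0.22 on the log2 scale. P4ha2 was at 60.6, 58.7 and 55.6 CPM in dox-free NLS-N-VEGF cells and at 66.6, 59.3 and 63.4 CPM in dox-treated ones. In N-VEGF cells it was at 61.5, 54.9 and 53.6 CPM without dox and at 58.4, 55.6 and 57.6 CPM with it, and its mean difference was 0.06 (interval -0.06 to 0.19). The partner P4hb averaged 998 CPM over the 12 libraries with a mean dox difference of -0.11, and the other catalytic subunit, P4ha3, averaged 14.6 CPM with one of -0.04. Neither passed the test.

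NLS-N-VEGF and N-VEGF cells were next compared with each other, with dox and without it. Among all 13608 genes edgeR called 0 (0%) in each comparison and 0 (0%) for the difference of dox effects, with 160, 82 and 116 genes at an unadjusted p under 0.05, and DESeq2 called 0 in all 3. The members counted 0 at an unadjusted p under 0.05 in each. With the block they counted 2 with dox (Plod2 and Lox), 1 without dox (Loxl2) and 0 for the difference of dox effects, beside 621, 499 and 464 of all genes, and none of the members passed the adjusted threshold. P4ha2 with dox was the only member whose groups did not overlap, at 59.3 to 66.6 CPM in NLS-N-VEGF and 55.6 to 58.4 CPM in N-VEGF cells, a log2 difference of 0.14 (interval -0.04 to 0.32). Of all tested genes 6.46% separated in this way with dox and 3.28% without it. Plod2 with dox was 0.29 higher in NLS-N-VEGF cells (interval -0.01 to 0.58, unadjusted p = 0.0572), in each of the 3 same-label pairs (0.41, 0.13 and 0.32). With the block the interval was 0.12 to 0.46 (edgeR unadjusted p = 0.00259, adjusted p = 0.899). Loxl2 without dox was 0.71 higher in NLS-N-VEGF cells (interval -0.18 to 1.60), also in each pair, on few counts. The other members differed by at most 0.25 in size with dox and 0.21 without it.

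More members passed the test between libraries of the 2 suffixes than with dox, though the fits were not alike. The dox fit with 1 mean per group held no term for suffix or label, and set 3 libraries against 3 in each population. The fit with the block called 5 members between the suffixes, beside 6232 of all genes. For dox it called 1 member in NLS-N-VEGF cells, 0 in N-VEGF cells and 1 for the mean. Holding the group constant, edgeR called 5 of the 10 members between suffix _290419 (4 libraries) and suffix _120519 (8 libraries), with Loxl3 and Loxl4 higher and Loxl1, Plod2 and P4ha1 lower in _290419. Over all genes it called 6207, or 45.6%, so that the share of the members is close to the share of all genes. The median log2 difference was -0.11 over the members and 0.01 over all genes. The groups of libraries did not overlap for Loxl3 and P4ha1, as for 28.0% of all tested genes. All libraries numbered 1 carry suffix _120519, and each suffix holds all 4 groups.

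P4ha1 (ENSMUSG00000019916, chr10:59323296-59373304, plus strand, GRCm38) was at 160 to 180 CPM, median 174, in the 8 libraries of suffix _120519. In the 4 libraries of suffix _290419 it was at 138, 157, 136 and 129 CPM in the order NLS-N-VEGF without and with dox, N-VEGF without and with dox. Each of these lies below all 8 others, and the log2 difference was -0.30 (SE 0.06, edgeR adjusted p = 6.94e-04). Plod2 ran from 61.3 to 83.9 CPM, median 68.4, against 63.2, 61.9, 55.4 and 49.5 CPM, a difference of -0.28 (SE 0.06, edgeR adjusted p = 0.00139), and the sets overlap slightly. Both genes were lower in _290419 within each of the 4 groups. Plod2 did not pass the test among the libraries without dox alone, at -0.16 (edgeR adjusted p = 0.171).

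Loxl3 went the other way, from 56.8 to 66.8 CPM, median 62.5, in suffix _120519 to 75.1, 79.9, 75.6 and 68.9 CPM in _290419. The log2 difference was 0.27 (SE 0.06, edgeR adjusted p = 0.00207), and Loxl3 lay above in each of the 4 groups. Loxl4 was higher in _290419 in each group too, at 14.3, 22.2, 17.2 and 26.3 CPM, a difference of 0.27 (SE 0.08, edgeR adjusted p = 0.0124). This call was lost without the library of dox-treated N-VEGF cells, 2_290419, at 0.19 (edgeR adjusted p = 0.118), and among the libraries without dox at 0.22 (0.198).

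Loxl1 was at 220 to 319 CPM, median 288, in suffix _120519 and at 216, 266, 191 and 219 CPM in _290419, a log2 difference of -0.30 (SE 0.10, edgeR adjusted p = 0.0188). It was lower in 3 of the 4 groups and higher, by 0.19, in dox-treated NLS-N-VEGF cells. The call was lost without the _290419 library of dox-free NLS-N-VEGF cells at -0.26 (edgeR adjusted p = 0.0939), of dox-free N-VEGF cells at -0.19 (0.136) and of dox-treated N-VEGF cells at -0.30 (0.0642). Among the libraries with dox alone the difference of Loxl1 was -0.05 (edgeR adjusted p = 0.718).

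Lox and Plod1, like Loxl1, lay lower in _290419 in 3 groups and higher in dox-treated NLS-N-VEGF cells, and neither passed the test over all 12 libraries with the filter on low counts. Lox in _290419 differed from the mean of its _120519 companions by -0.24, -0.22 and -0.43 on the log2 scale in dox-free NLS-N-VEGF, dox-free N-VEGF and dox-treated N-VEGF cells, and by 0.32 in dox-treated NLS-N-VEGF cells. Plod1 differed by -0.28, -0.33 and -0.13 in the same 3 groups and by 0.17 in dox-treated NLS-N-VEGF cells. Over all groups the differences were -0.14 (edgeR adjusted p = 0.229) for Lox and -0.14 (0.104) for Plod1. Without the library of dox-treated NLS-N-VEGF cells, 2_290419, they came to -0.30 (edgeR adjusted p = 0.00235) for Lox and -0.25 (0.00378) for Plod1, and both were called lower. Plod1 was also called without the 2_120519 library of that group, at -0.18 (edgeR adjusted p = 0.0368), and among the dox-free libraries alone, at -0.30 (0.0224). Without the filter both were called, Lox at -0.17 (edgeR adjusted p = 0.0228) and Plod1 at -0.17 (0.0486).

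Of the remaining members, Plod3 differed by -0.08 and P4ha2 by -0.05, with intervals of -0.19 to 0.03 and -0.16 to 0.07. Loxl2 differed by 0.58 (SE 0.24, edgeR adjusted p = 0.0565). It was called higher without either of the libraries of dox-treated NLS-N-VEGF cells labelled 1_120519 (at a log2 difference of 0.72, edgeR adjusted p = 0.0202) or 2_290419 (0.81, 0.0175). Among the libraries numbered 2 alone Loxl2 was also called higher, at 0.74 (edgeR adjusted p = 0.0317).

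**Figure D5:**
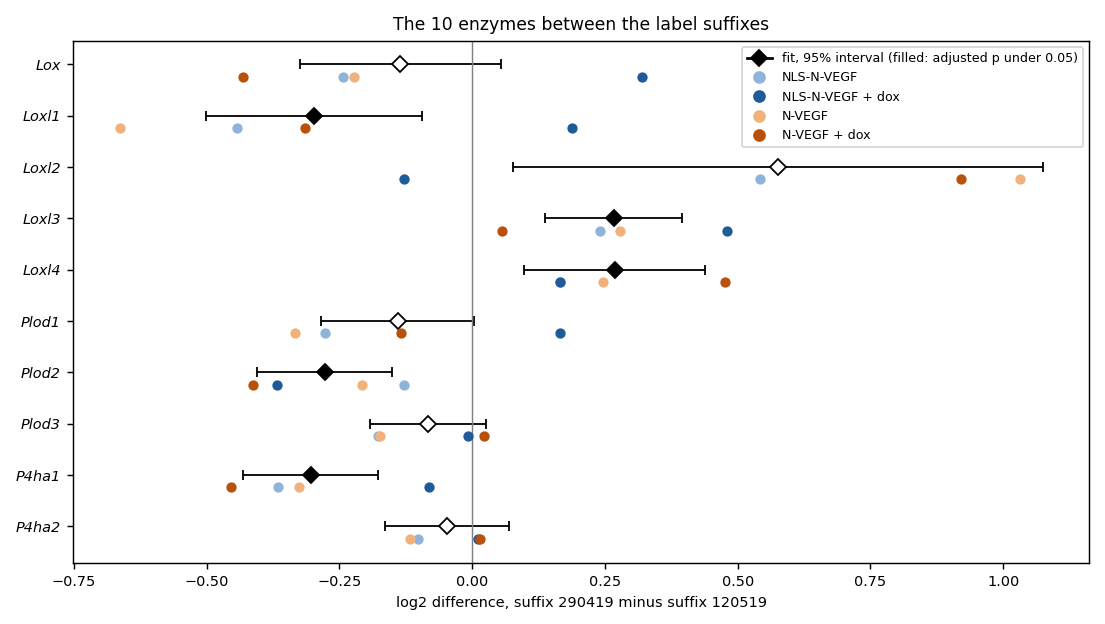
Log2 difference between suffix _290419 and suffix _120519 for each enzyme. Diamonds are the fitted difference over the 4 groups with its 95% interval, filled where the adjusted p is under 0.05, and dots give the _290419 library of each group against the mean of its _120519 libraries. The 5 filled diamonds are Loxl3 and Loxl4 at 0.27, Plod2 at -0.28 and Loxl1 and P4ha1 at -0.30, and the dark blue dot of NLS-N-VEGF with dox lies right of 0 for Lox, Loxl1 and Plod1 while the other groups lie left.

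Genes that work beside the members were described from 6 lists of 77 genes, of which 63 were tested. In the comparisons of dox and of the populations edgeR called 0 of the 63, with 5 at an unadjusted p under 0.05 for dox in NLS-N-VEGF cells, 3 in N-VEGF cells, 5 for their mean, 0 for the difference of dox effects and 3 in each comparison of populations. DESeq2 called 2 for the mean dox effect and 0 in the other comparisons of this kind. The fit with the block called 0 of the 63 for dox in NLS-N-VEGF cells, 1 in N-VEGF cells and 4 for the mean. Of all genes it called 0.125, 0.110 and 0.566%. With the block, Col5a2, a minor fibrillar collagen chain, was higher with dox in N-VEGF cells by 0.81 (edgeR adjusted p = 0.00369) and on average by 0.61 (0.00113). On average the small proteoglycan Dcn was lower (-0.54, edgeR adjusted p = 0.00578), as was Adm (-0.57, 0.0158), a HIF target, and Acta2, smooth muscle actin, was higher (0.54, 0.0453). These are single genes of their lists. For this mean, 15 of 16 HIF targets outside the members and 6 of 7 tested TGF-beta targets were not called.

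Between the suffixes edgeR called 35 of the 63 and DESeq2 36, beside the 45.6% that edgeR called of all genes. By direction, edgeR called 3192 of all 13608 genes lower and 3015 higher in suffix _290419, beside which the counts of each list below stand. Of 15 tested partners in the endoplasmic reticulum 6 were lower and 0 higher in suffix _290419, with a list median of -0.10 on the log2 scale. They were the collagen galactosyltransferase Colgalt1 (-0.47), the transcription factor Creb3l1 (-0.37), the collagen chaperone Serpinh1 (-0.36), the prolyl 3-hydroxylase P3h1 (-0.35), P4hb (-0.24) and the P3h1 partner Crtap (-0.23). P4hb, at 949 to 1253 CPM in suffix _120519 and 872 to 908 CPM in _290419, did not overlap, as P4ha1 did not. P4ha3 was at 11.8 to 17.2 CPM and 12.8 to 16.02 CPM and did not pass the test.

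Of 8 tested lysyl oxidase substrates, 4 were lower, namely Col3a1 (-1.22), Col4a1 (-0.61), Col4a2 (-0.42) and Col5a1 (-0.30), and Col5a2 was higher (0.71). Of 13 tested extracellular partners, 3 were higher and 2 lower. Thbs1 (1.88), an activator of latent TGF-beta, and Efemp2 (0.57), a scaffold for Lox on elastic fibers, were higher, and fibronectin, Fn1 (-0.55), and the procollagen protease Adamts14 (-0.44) were lower. The remaining gene that was higher, Lum, averaged under 1 CPM. The list medians were -0.29 for the substrates and 0.08 for the extracellular partners.

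Of 16 HIF reference targets outside the members, 10 were lower in _290419 and 0 higher, with a median of -0.20. The largest were Pdk1 (-0.95), Ndrg1 (-0.77), Bnip3 (-0.65), Egln3 (-0.45), Ldha (-0.40) and Vegfa (-0.30). Of 7 tested TGF-beta reference targets, 5 were higher and 2 lower, among them Acta2 (1.60), Ltbp2 (0.95), Tgfb1i1 (0.59), Tgfbi (-0.57) and Skil (-0.39). Of 4 tested regulators, Tgfb3 (-0.53) and Hif1a (-0.49) were lower, with a median of -0.27. The libraries are of bulk RNA, in which fewer cells that express a gene and less of its RNA per cell cannot be told apart, and what part these lists have in the members' differences was not tested.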

How the data were processed

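RNA of 12 fibroblast samples was sequenced after poly(A) TruSeq RNA v2 library preparation, a kit that does not mark strand. The authors trimmed reads with Trim Galore and cutadapt 1.10, aligned them to GRCm38 with TopHat2 2.1.0 and Bowtie2 2.2.6, and counted reads per gene with HTSeq 0.6.1. The deposited table gives each gene's count in each library as a whole number, without normalization. The counting option for strand is not given in the sources used here. The labels speak of triplicates but not of separate cultures, so p-values measure the spread between these libraries, which may be technical.

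Genes were filtered with filterByExpr by group in edgeR 4.0.16 (R 4.3.3), which left 13608 of 54447, and libraries were scaled by TMM. CPM are counts over the scaled total. The quasi-likelihood test was fitted to all 12 libraries with 1 mean per group, for 6 comparisons of dox and population, and with group plus suffix for the seventh. For dox and population, SEs and intervals are from the fit with 1 mean per group unless the block is named. P-values were adjusted by Benjamini-Hochberg over all genes tested, at 0.05. Alternatives were RLE scaling, no filter, the Wald test of DESeq2 1.42.0, the library label as a block, suffix _120519 alone, the suffix as a term, subsets for the suffix comparison and leaving out each library. DESeq2 with the block, and leaving out each library in the fit with the block, were added after seeing the data. Scripts were tested on simulated data.

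Libraries of the same label deviated from their group means together: over 12057 genes averaging at least 1 CPM, the correlation was 0.40 to 0.83 in 18 of 18 pairs across groups (mean 0.59), against a mean of -0.25 over 36 pairs of different labels. The 12 of these 36 that share suffix _120519 but not the number correlated at 0.14 to 0.68, and the rest, across suffixes, lay below 0.1. The same-label pairs within that suffix, at 0.42 to 0.69 for 1_120519 and 0.40 to 0.61 for 2_120519, overlap this range. Pairing by label was thus not told apart from sharing the suffix. Deviations from a mean of 3 libraries sum to 0 within a group, so the mean of -0.25 follows largely from the positive same-label values. It is no separate support for the pairing. With every same-label pair above 0.1 the labels were taken to pair the libraries, though this mark cannot separate label from suffix. The blocked value stands beside results whose call it changed. Exon lengths and overlaps came from GENCODE annotation on GRCm38, and promoters from RefSeq on GRCm38.p6.

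All 10 members were named throughout, with P4hb and P4ha3. Of each related list, up to 6 called genes with the largest log2 difference and a mean of at least 1 CPM were named, Lum and Vegfa being added after their values were seen. The values of 1 gene of these lists are not reported here. The members, the related lists and the marker lists were chosen with earlier results of these data known.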

Additional observations from a re-analysis of the deposited data

How the results depend on the processing

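Of 1700 single-member values under the alternatives, 1644 kept their side of the threshold, 48 came to pass it and 8 ceased to. In 185 the sign changed, in each case for a difference that was uncalled and at an unadjusted p of at least 0.05 in both fits, and 0 called values turned. The number of called members and genes moved more. For dox in NLS-N-VEGF cells (0 members, 3 genes), 1 member (Loxl4) was called without the filter, with the block, with the suffix as a term and by DESeq2 with the block, at 53, 17, 15 and 42 genes, while DESeq2 called 9 genes and suffix _120519 alone 109. For N-VEGF cells (0 members, 5 genes) the counts were 36 genes without the filter, 15 with the block, 16 in suffix _120519 alone, 13 with the suffix term and 31 by DESeq2 with the block, which alone called 1 member, Lox (-0.50). For the mean of both (0 members, 8 genes) the counts were 77 genes and 2 members (Lox and Loxl4) without the filter, 16 and 1 (Loxl4) by DESeq2, 77 and 1 with the block, 135 and 2 in suffix _120519 alone, 73 and 1 with the suffix term and 98 and 2 by DESeq2 with the block. The difference of dox effects had 0 genes, 1 without the filter and 4 in suffix _120519 alone. Between the populations with dox (0 genes) there were 9, 2, 11, 2 and 5 without the filter, with the block, in suffix _120519 alone, with the suffix term and by DESeq2 with the block, and without dox (0 genes) there were 10, 5 and 2 without the filter, in suffix _120519 alone and by DESeq2 with the block. Between the suffixes 6207 genes became 2902 among the libraries without dox, and the call of Loxl1 was lost under DESeq2 with the block (-0.31, adjusted p = 0.0775). The cause of these shifts was not tested. Leaving out 1 library, with or without the block, gave 0 to 118 genes and 0 to 2 members for NLS-N-VEGF cells, 1 to 33 and 0 to 1 for N-VEGF cells, and 5 to 202 and 0 to 2 for the mean. For the suffixes, where libraries were left out without the block alone, it gave 4929 to 7200 genes and 3 to 8 members. In edgeR fits to all 12 libraries, the replicate block changed the call of Loxl4 in NLS-N-VEGF cells and on average, and no other member's call in any comparison. Loxl2 rests on 10 to 28 counts per library.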
